A study of Mus musculus with 24 samples.

Results

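The question addressed here was whether the mammary gland of 2 mouse strains differed in its RNA response to low-dose ionizing radiation (LDIR) at 4 weeks after exposure. The comparison used 12 of the 24 arrays of the series: BALB/c and SPRET/EiJ females, each with 3 arrays after LDIR and 3 after sham exposure. LDIR was 1 whole-body X-ray dose of 10 cGy given at 8 to 9 weeks of age, the sham groups had the same age and interval without dose, and no group carried an engineered allele. BALB/c mice are a standard inbred line, while SPRET/EiJ mice were inbred from another species, Mus spretus. The study describes 2 variants of DNA-PKcs in BALB/c that lower its activity and impair end joining. It took BALB/c as the more sensitive strain and SPRET/EiJ as the more resistant. The labels number 3 replicates A, B and C in each group without saying that each is a separate mouse. The study's methods call them biological replicates. The p-values measure the spread between these arrays. The estrous stage of the mice is not in the labels.

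The quantity tested was the difference of changes, on the log2 scale: LDIR minus sham in BALB/c, minus LDIR minus sham in SPRET/EiJ. A value above 0, called higher here, means that the change was more positive in BALB/c. The probes follow the mouse reference genome, so levels are not compared between the strains, and the effect of mismatches to Mus spretus on the size of a change was not tested. The level of a gene on an array is its log2 intensity minus the 75th percentile of that array, so levels compare arrays for 1 probe and not probes with each other. Signal well above background on each of the 12 arrays was required, which left 30422 of 55681 probes to test, 24441 for coding RNAs and 5981 for long noncoding RNAs (lncRNAs). They gave 15332 named genes, each read from its brightest tested probe. Markers of the labelled tissue were present, with 18 luminal, 11 basal and 16 white adipocyte genes among those tested.

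The mammary gland is a bilayered epithelium of luminal and basal cells set in a fat pad, together with fibroblasts, vessels, nerves, macrophages and lymphocytes. X-rays break DNA, which activates p53 and repair enzymes. Fragments of damaged DNA and dying cells can also engage the sensors that induce type I interferon, and interferon in turn induces a set of antiviral genes through STAT and IRF factors. Tissue macrophages clear dying cells and are a main source of the complement protein C1q. In whole tissue, fewer cells of a type and less RNA per cell cannot be told apart.

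Over all tested probes, 942 passed an unadjusted p under 0.05 with a difference of changes over 1.5-fold in limma's moderated test, which is 3.1% of them. Of these 574 were higher (1.89%) and 368 lower (1.21%), a share of higher calls of 60.9% that was 49.1% after normexp background correction. None had an adjusted p under 0.05, and the smallest adjusted p (limma, Benjamini-Hochberg) was 0.938. An unadjusted p under 0.05 (limma) was found for 975 probes, or 3.2%. On average a threshold of 0.05 lets through a larger share than this when no difference exists. Every gene described below as past the thresholds with all arrays passed the unadjusted rule alone and had an adjusted p (limma) of 0.938. That value belongs to the fit with all arrays, and not to genes past the thresholds only in another fit. Counting 1 probe per gene, 1.85% of the 15332 genes were past the thresholds as higher and 0.874% as lower, 2.73% in all, and the median difference over all genes was 0.07. These shares are the background for the counts of each gene list.

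A single array, SPRET/EiJ LDIR replicate A, stood apart from the rest of its group. On it 504 of the 15332 genes lay more than 2 log2 units above the mean of the other 2 arrays of the group, against 2 to 53 genes on the other 11 arrays. Lymphocyte genes were high on this array. Lck, the kinase that starts T cell receptor signalling, had a level of 5.77 there, and -0.42 and -0.00 on replicates B and C. Cd79b, a chain of the B cell receptor, had 5.57 there, and -4.49 and -1.56 on B and C. Over the 15 tested T lymphocyte markers, 12 were more than 2 log2 units above the other 2 arrays, and so were 4 of 7 B lymphocyte markers and 8 of 8 genes of major histocompatibility complex (MHC) class II. White adipocyte markers went the other way, with a median of -1.72 over 16 genes relative to the other 2 arrays. The gene lists that it moved most are given below with and without it. Without that array 977 of all 30422 tested probes were past the thresholds (3.21%), 481 as higher and 496 as lower. These shares are the background for the counts without it.

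**Figure D1:**
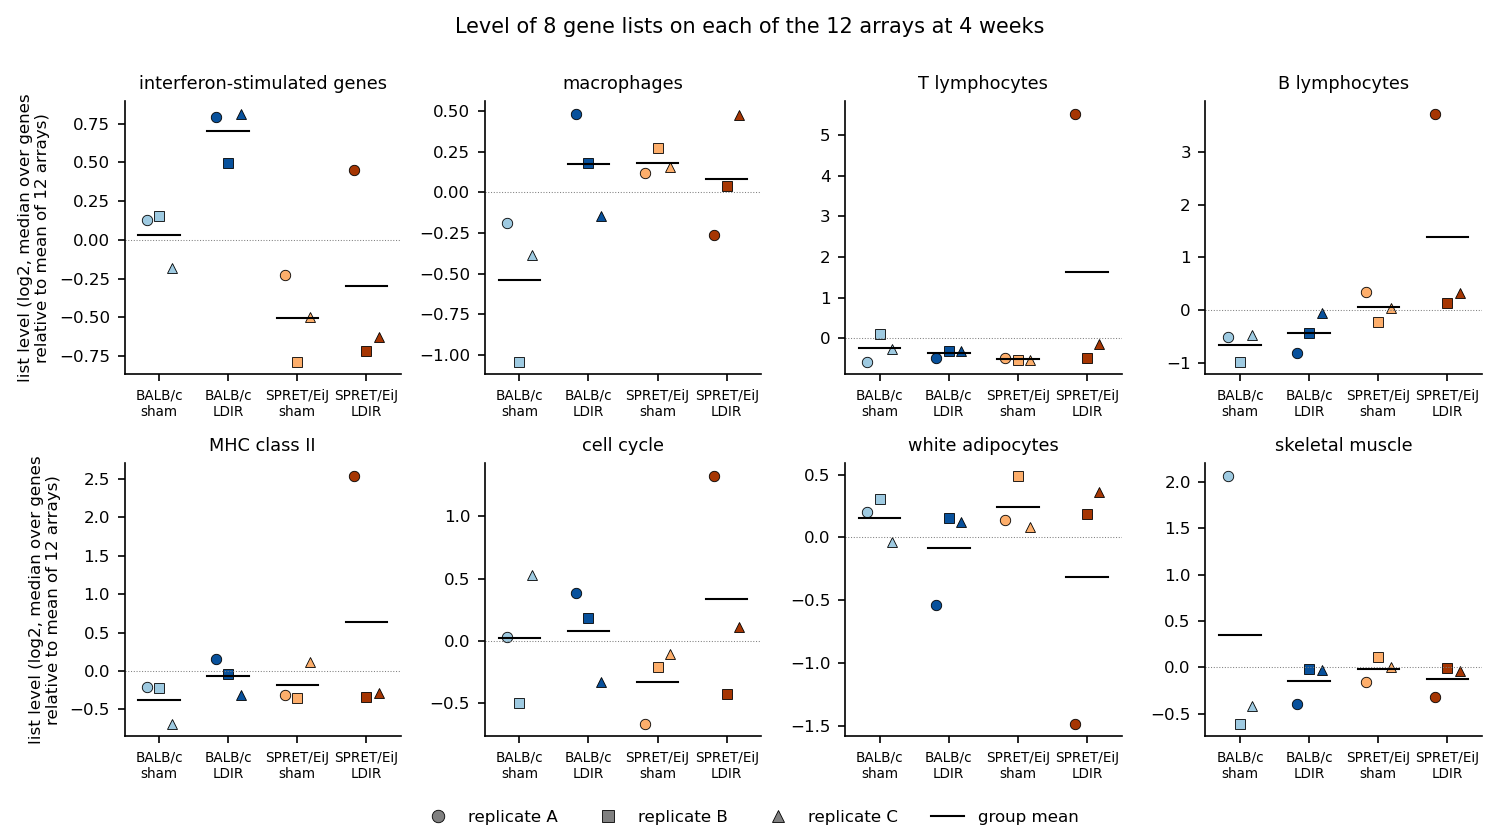
Level of 8 gene lists on each of the 12 arrays (median over the list's genes of the log2 level relative to the gene's mean over the 12 arrays), with points for replicates A, B and C and a line for the group mean. SPRET/EiJ LDIR replicate A is at 5.53 for T lymphocytes, 3.72 for B lymphocytes and 2.54 for MHC class II, and BALB/c sham replicate A is at 2.06 for skeletal muscle.

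The slides were also unevenly spread. Slide 1 held BALB/c sham replicates A and B, slide 2 held the 3 BALB/c LDIR arrays with sham replicate C, and slide 3 held the 6 SPRET/EiJ arrays. With slide as a fixed block, the BALB/c change rests on sham replicate C alone. The count past the thresholds was then 327 probes, of which 30.3% were higher. Within these 12 arrays strain and slide cannot be told apart.

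Interferon-stimulated genes were the list with most members apart in BALB/c. Of the 23 tested, 16 had all 3 BALB/c LDIR arrays above all 3 sham arrays, against 6.5% of all genes, and 0 had them all below, against 5.96%. Their median change was 0.78 in BALB/c and 0.31 in SPRET/EiJ, and 5 of the 23 were past the thresholds as higher. These were Oasl2, Oas1a, Oas2, Ifit3 and Zbp1, and none was past them as lower.

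Oasl2, a member of the 2'-5'-oligoadenylate synthetase family of antiviral proteins, had the smallest p of the 30422 tested probes, and its sequence (build mm9) is shown for that reason.

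Oasl2, chr5:115362168-115362227, + strand: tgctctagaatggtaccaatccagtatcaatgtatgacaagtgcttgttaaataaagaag

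Its level was 1.86, 1.04 and 1.33 on BALB/c sham arrays A, B and C, and 3.06, 2.43 and 2.57 on the LDIR arrays. The SPRET/EiJ levels were 1.39, 1.11 and 1.56 after sham and 0.99, 1.04 and 1.01 after LDIR. In BALB/c all LDIR arrays lay above all sham arrays, and in SPRET/EiJ all LDIR arrays lay below all sham arrays. The change was 1.28 in BALB/c and -0.34 in SPRET/EiJ, a difference of 1.62 with an SE of 0.34 (limma, unadjusted p = 0.000453). It stayed past the thresholds without each of the 12 arrays in turn (1.43 to 1.84) and under the other 13 ways of processing or fitting tried.

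Oas1a, which makes the 2'-5'-oligoadenylates that activate RNase L, stood at 2.38, 2.10 and 1.95 on the BALB/c sham arrays and at 3.69, 2.88 and 3.56 after LDIR. In SPRET/EiJ its levels overlapped, with 2.41, 1.30 and 1.88 after sham and 2.44, 1.99 and 1.73 after LDIR. The difference of changes was 1.04 with an SE of 0.43 (limma, unadjusted p = 0.0339). Oas2, a related synthetase, went from 1.45 to 1.98 on the sham arrays to 2.28 to 3.22 on the LDIR arrays of BALB/c, and stayed between 1.12 and 1.29 on all 6 SPRET/EiJ arrays. Its difference was 0.82.

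Ifit3, an interferon-induced protein with tetratricopeptide repeats, had levels of 1.53, 1.16 and 1.19 in BALB/c sham and 2.02, 2.39 and 2.73 in BALB/c LDIR. Its SPRET/EiJ levels were 0.95, 0.89 and 0.86 after sham and 1.81, 0.40 and 0.79 after LDIR, the highest value being that of replicate A. The difference was 0.99 with all arrays and 1.39 without that replicate. Zbp1, a sensor of Z-form nucleic acids that can trigger necroptosis, differed by 1.04 with all arrays and 1.34 without that replicate, but a dimmer probe of Zbp1 gave -0.79, so the 2 probes disagree. Zbp1 was past the thresholds in 4 of the 12 fits that left out 1 array, and not with slide as a fixed block (1.09).

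Members that were not past the thresholds with all arrays included Isg15, a ubiquitin-like modifier, at 0.49, Ifit1 at 0.59, Usp18, the protease that removes Isg15, at 0.39, and Irf7, a factor that amplifies interferon production, at 0.54. For the GTPases Mx1 and Mx2, which block virus replication, the difference was -0.17 and -0.11. On SPRET/EiJ LDIR replicate A Mx1 stood at 4.02, against 0.69 and 0.62 on B and C, and Usp18 stood at 2.89 against 0.07 and 0.14. Interferon-stimulated genes thus had a high level on the same array as the lymphocyte and MHC class II genes, with a median of 1.30 above the other 2 arrays of its group. The part of lymphocytes in these levels was not tested. Without that array 11 of the 23 genes were past the thresholds, the list median went from 0.39 to 0.81, and 22 of 23 differences were above 0. The 6 added were Ifit2, Mx2, Usp18, Ifih1, Rtp4 and Dhx58, and the 5 named above remained. The SPRET/EiJ change of the list was then -0.09. Over all tested probes, 3.21% were past the thresholds without that array, and the median difference was 0.013.

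Within slide 2, all 3 LDIR arrays were above sham replicate C for 21 of the 23 genes, against 22.9% of all genes. This count holds the 16 genes given above and rests on 1 sham array, which had the lowest level of the list among the BALB/c sham arrays (-0.18, against 0.13 and 0.15 for A and B). The fixed slide block left 4 of the 23 past the thresholds, and 13 when SPRET/EiJ LDIR replicate A was also left out, an alternative chosen after the data were seen. Leaving out other single arrays gave 1 to 5 genes past the thresholds, with 1 each without BALB/c sham C, SPRET/EiJ LDIR B, SPRET/EiJ LDIR C and SPRET/EiJ sham C. The list median stayed above 0 in each of these, between 0.20 and 0.57. A fit of the 24 arrays of the series left 2 of the 23 genes past the thresholds.

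The promoters of this list are shown for 3 of the genes past the thresholds, because 16 of the 23 members stood apart the same way in BALB/c. Sequences are RefSeq's on build GRCm38.p6, windows of 300 bases around the start of transcription that lie mostly before it. The motif searched was GAAANNGAAA on both strands (read as TTTCNNTTTC on the other strand), the core of the element that IRF and STAT complexes bind, with overlapping matches counted and matched bases in capitals.

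Ifit3, chr19:34583279-34583578, + strand: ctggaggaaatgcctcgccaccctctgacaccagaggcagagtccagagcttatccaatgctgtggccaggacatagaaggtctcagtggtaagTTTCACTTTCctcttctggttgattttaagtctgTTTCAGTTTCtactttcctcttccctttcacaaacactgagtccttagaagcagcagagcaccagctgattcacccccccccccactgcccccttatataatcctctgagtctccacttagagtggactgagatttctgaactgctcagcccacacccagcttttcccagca
Oas1a, chr5:120907476-120907775, - strand: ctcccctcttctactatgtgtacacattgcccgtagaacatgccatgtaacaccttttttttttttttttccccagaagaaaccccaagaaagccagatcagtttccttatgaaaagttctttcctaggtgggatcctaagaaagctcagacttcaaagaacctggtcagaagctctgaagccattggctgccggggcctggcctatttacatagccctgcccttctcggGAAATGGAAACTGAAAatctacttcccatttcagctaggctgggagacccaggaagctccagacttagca
Oasl2, chr5:114896684-114896983, + strand: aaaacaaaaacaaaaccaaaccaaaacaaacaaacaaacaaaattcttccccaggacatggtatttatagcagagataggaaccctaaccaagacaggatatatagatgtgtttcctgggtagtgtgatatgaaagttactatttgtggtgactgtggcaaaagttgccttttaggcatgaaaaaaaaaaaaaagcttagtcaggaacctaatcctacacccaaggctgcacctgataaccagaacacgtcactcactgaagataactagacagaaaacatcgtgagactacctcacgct

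Ifit3 and Oas1a hold 2 matches each, and the Oasl2 window holds none of these letters. Of the 14 tested members with a promoter in the RefSeq table, 9 hold the motif (64.3%), against 3.75% of the 11991 tested genes with a promoter there and 3.44% of all 32851 promoters. Of the 3 members past the thresholds with a promoter there, 2 hold it (66.7%), a share near that of the tested list. None of 9 macrophage markers with a promoter holds it, which is near the share of all tested genes. The list was chosen as genes that interferon induces, so its share says nothing about LDIR or the strains. A match is a description of the letters and not a binding site.

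Macrophage markers were the list with most genes past the thresholds. Of 15 tested, 10 had all 3 BALB/c LDIR arrays above all 3 sham arrays, against 6.5% of all genes, and 0 had them below, against 5.96%. The median change was 0.83 in BALB/c and -0.05 in SPRET/EiJ. Past the thresholds as higher were 6 of 15: the C1q chains C1qa, C1qb and C1qc, the mannose receptor Mrc1, the galactose-type lectin Clec10a and the hyaluronan receptor Lyve1. The last is also made by lymphatic vessels.

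The C1qa probe is shown as the macrophage marker with the smallest p.

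C1qa, chr4:136452409-136452468, - strand (mm9): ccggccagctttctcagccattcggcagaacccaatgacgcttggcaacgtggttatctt

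C1qa, the A chain of the first complement component, had levels of 2.65, 1.44 and 2.06 on the BALB/c sham arrays and 3.58, 2.78 and 2.91 on the LDIR arrays. SPRET/EiJ levels were 2.37, 2.52 and 2.52 after sham and 1.90, 2.28 and 2.38 after LDIR. The BALB/c groups did not overlap and the SPRET/EiJ groups did. The difference of changes was 1.33 with an SE of 0.42 (limma, unadjusted p = 0.00868), and 1.18 without SPRET/EiJ LDIR replicate A.

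C1qc had 3.29, 2.35 and 3.00 in BALB/c sham and 4.20, 3.58 and 3.63 after LDIR, and its difference was 1.20. Mrc1 had 2.82, 2.28 and 2.72 in BALB/c sham and 3.69, 3.34 and 3.12 after LDIR, with a difference of 0.99. All these sham arrays lay below all LDIR arrays of the strain. Markers that were not past the thresholds included Csf1r, the receptor for macrophage colony-stimulating factor, at 0.82, Cd68, a lysosomal glycoprotein, at 0.82, and Adgre1, which encodes F4/80, at 0.52. Itgam, the integrin chain CD11b that neutrophils and monocytes also carry, differed by 0.12.

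The macrophage count depended on single arrays and on slide. BALB/c sham replicate B had the lowest level of the list among the 6 BALB/c arrays, at -1.04, and without it 2 of 15 genes were past the thresholds with a median of 0.65. The same count of 2 was reached without BALB/c LDIR replicate A. Without SPRET/EiJ LDIR replicate A 4 of 15 were past them, with Lyz1, which encodes lysozyme, added and C1qb, Clec10a and Lyve1 lost. The fixed slide block left 1, C1qa, and 0 when SPRET/EiJ LDIR replicate A was also left out, with medians of 0.64 and 0.54.

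**Figure D2:**
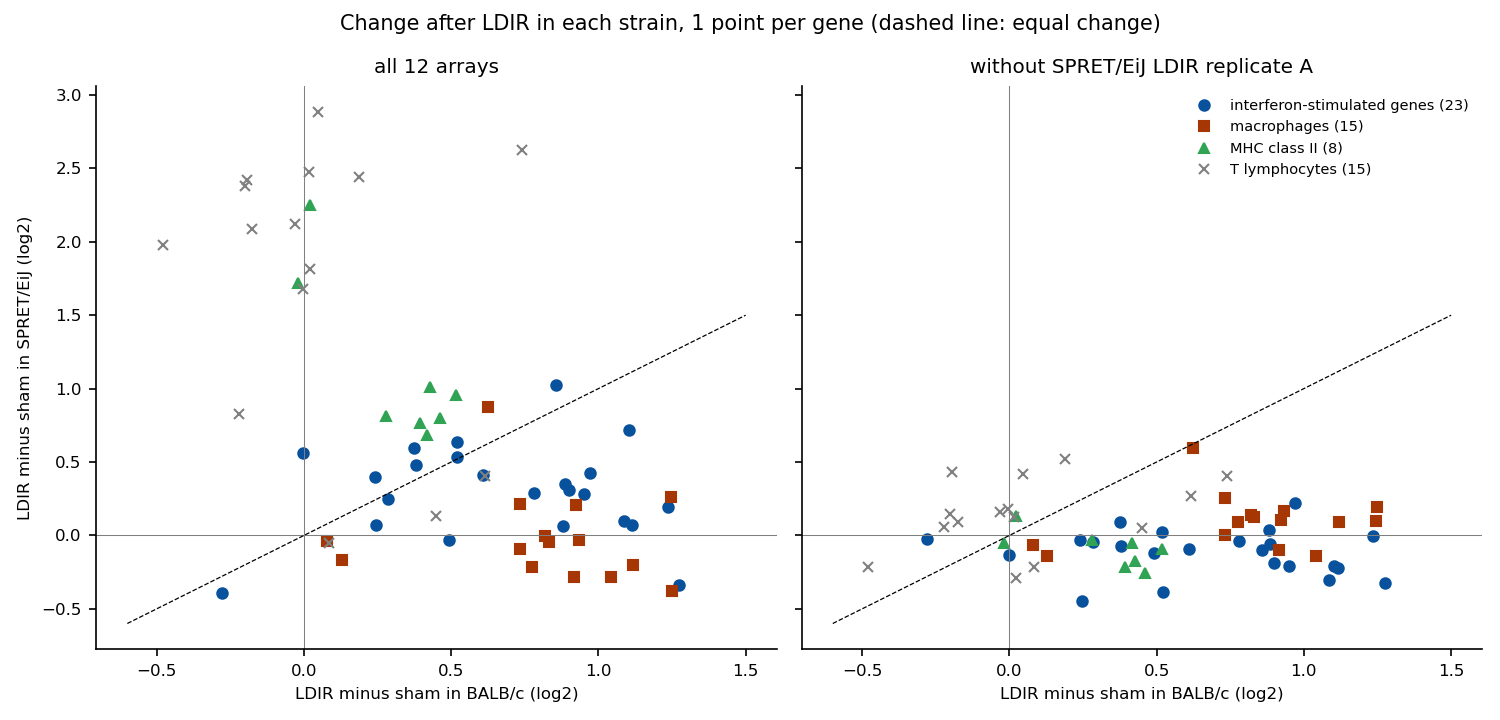
Change after LDIR in SPRET/EiJ (log2, vertical) against that in BALB/c (log2, horizontal), 1 point per gene for 4 lists, with all 12 arrays on the left and without SPRET/EiJ LDIR replicate A on the right. The median change of macrophage markers was 0.83 in BALB/c in both panels, and that of T lymphocyte markers in SPRET/EiJ was 2.09 on the left and 0.15 on the right.

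Type 2 immunity is the arm driven by interleukin 4 and interleukin 13, and some of its genes are macrophage products. Of 13 tested, 4 were past the thresholds as higher, among them Retnla, Ccl24 and Il4. Retnla (RELM alpha) is induced by interleukin 4 in macrophages. The list median was 0.37, 0.21 in BALB/c and -0.13 in SPRET/EiJ. With slide as a fixed block the median difference was 0.09.

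Retnla had levels of 6.81, 5.62 and 6.84 on the BALB/c sham arrays and 8.02, 7.60 and 7.06 after LDIR. SPRET/EiJ arrays had 7.59, 7.71 and 7.59 after sham and 6.0, 7.16 and 7.23 after LDIR. Thus LDIR arrays lay above sham arrays in BALB/c and below them in SPRET/EiJ, with no overlap in either strain. Its difference of changes was 1.97 with an SE of 0.56 (limma, unadjusted p = 0.00419), 1.57 without SPRET/EiJ LDIR replicate A and 1.55 with slide as a block. With slide as a block and without that array it was 1.15 and no longer past the thresholds.

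Retnla, chr16:48844447-48844506, + strand (mm9): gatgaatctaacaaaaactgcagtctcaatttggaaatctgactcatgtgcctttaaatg

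Il4 itself was dim, between -5.06 and -3.15 on all 12 arrays, and its unadjusted p of 0.0499 in limma was just inside the threshold. Stat6, which carries the interleukin 4 signal, differed by -0.11, and Chil3, another product of such macrophages, by -0.11. Without SPRET/EiJ LDIR replicate A 2 of 13 genes were past the thresholds, Retnla among them. The count was also 2 of 13 without BALB/c sham replicate B, where the level of the list was -0.585.

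Among chemokines 3 of 24 tested were past the thresholds as higher, and the list median was 0.00. Ccl8, a ligand that attracts monocytes and type 2 T cells, had 2.61, 1.95 and 2.34 in BALB/c sham and 4.82, 3.39 and 4.18 after LDIR. Levels in SPRET/EiJ were 3.50, 3.73 and 3.89 after sham and 2.00, 3.58 and 4.41 after LDIR. The BALB/c groups did not overlap, while SPRET/EiJ LDIR arrays lay on both sides of the sham arrays. Its difference was 2.21 with an SE of 0.73 (limma, unadjusted p = 0.0105), and 1.54 without SPRET/EiJ LDIR replicate A. Ccl6, a chemokine of myeloid cells, differed by 1.34 and by 0.95 without that array. Ccl6 was not past the thresholds with the slide block (1.33), under which 1 of the 24 chemokines passed, and 0 did in the fit of the 24 arrays with that block. Ccl24, an eosinophil attractant, differed by 1.54, and by 0.96 without that array, when it was no longer past the thresholds. Ccl7 and Ccl12, of the same family, differed by 0.83 and 1.00 and were not past the thresholds. At the low end Ccl5, a product of T cells, differed by -2.96 with all arrays and by -0.89 without SPRET/EiJ LDIR replicate A.

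**Figure D3:**
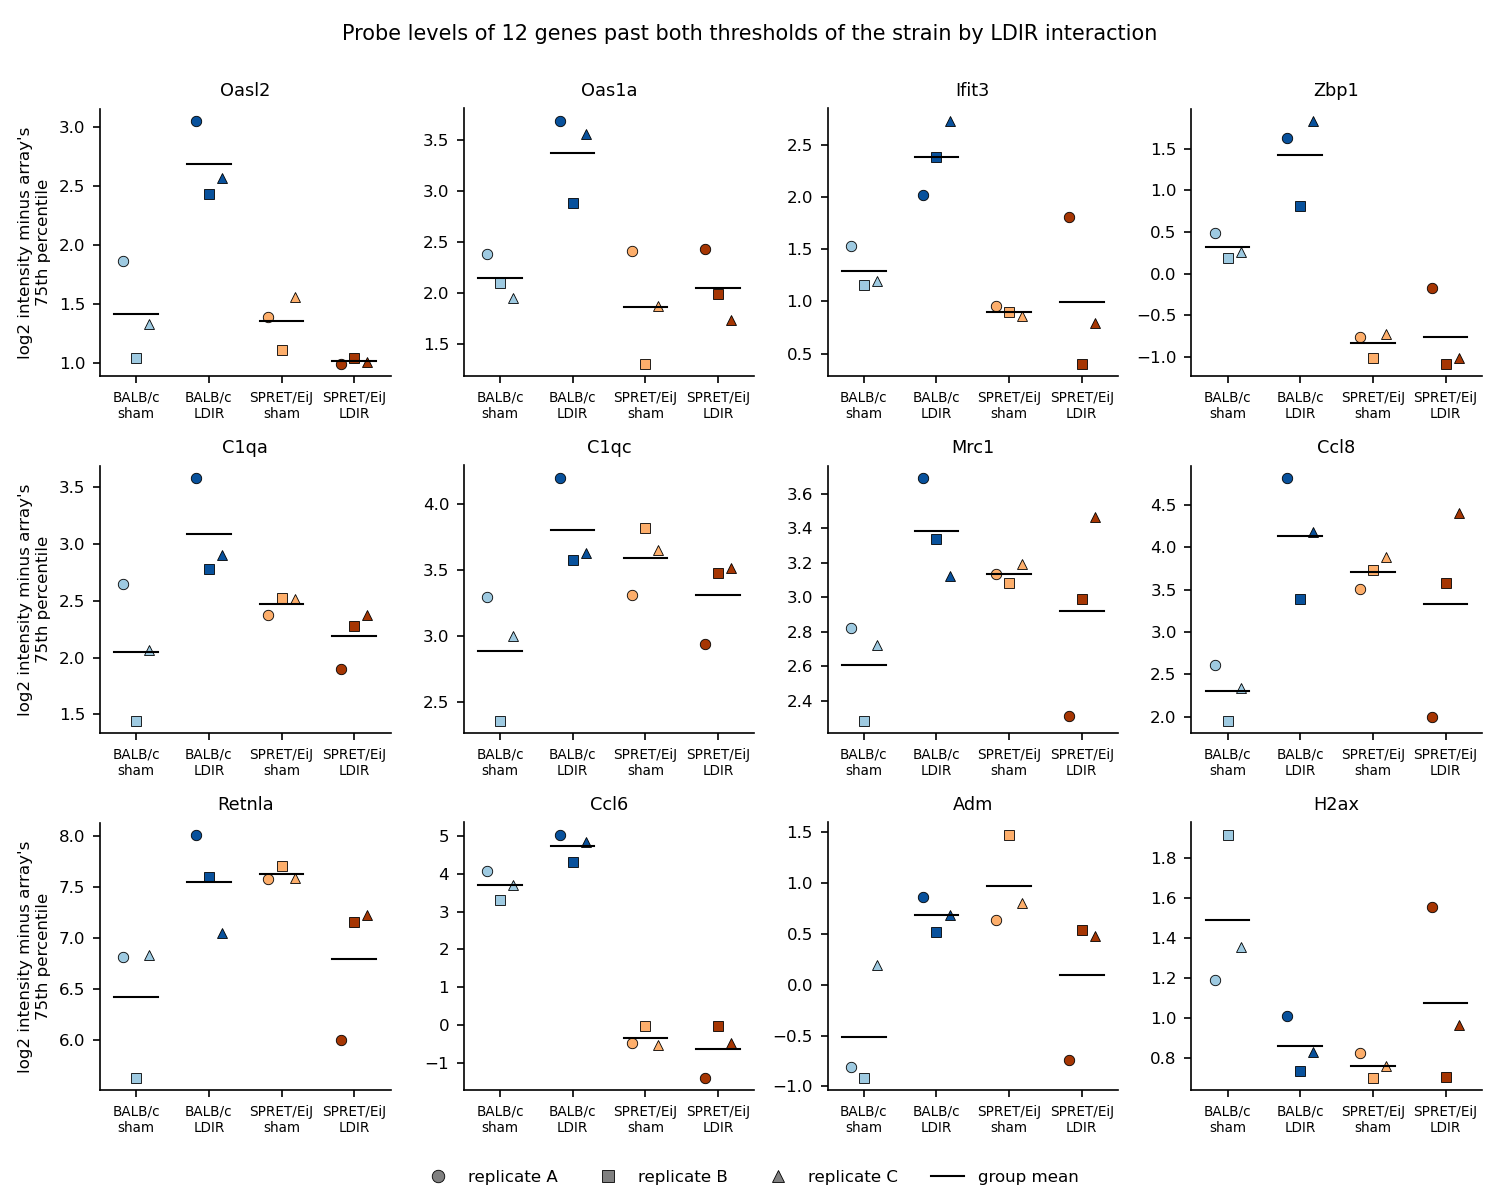
Levels (log2 intensity minus the array's 75th percentile) of 12 genes on the 12 arrays, with points for replicates A, B and C and a line for the group mean. Oasl2 is between 2.43 and 3.06 on the BALB/c LDIR arrays and between 1.04 and 1.86 on the BALB/c sham arrays.

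The median differences of the lymphocyte lists were smaller in size without the 1 SPRET/EiJ array. T lymphocyte markers had a median difference of -2.15 over 15 genes, and none was past the thresholds. Their change in SPRET/EiJ was 2.09 with all arrays and 0.15 without replicate A, and the median difference was then -0.19. Cd3e, a chain of the T cell receptor complex, had 1.79, 2.23 and 1.99 after sham and 4.37, 1.85 and 2.26 after LDIR in SPRET/EiJ. Its difference was -1.05 with the array and -0.28 without it. The median of the B lymphocyte markers went from -0.69 over 7 genes to 0.34. Cd79a, whose brightest probe differed by -0.44 and a dimmer one by -0.93, was at -0.24 without the array.

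MHC class II genes, which present peptides to helper T cells, had another sign without that array. All 8 tested were below 0 with all arrays (median -0.49), and 7 of 8 were above 0 without SPRET/EiJ LDIR replicate A (median 0.54). Then 2 of 8, Cd74, the invariant chain, and H2-Eb1, were past the thresholds as higher. In BALB/c the median change was 0.41. H2-DMa was the 1 gene of 8 whose BALB/c groups did not overlap, so the change lay within the spread of most of these genes. Genes of MHC class I and peptide loading had a median difference of -0.16 over 15 genes, 0.10 without the array, and none was past the thresholds.

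Cell cycle genes had a median difference of -0.59 over 29 genes with none past the thresholds, and -0.09 without SPRET/EiJ LDIR replicate A. Mki67, the proliferation antigen Ki-67, differed by -0.93 and by -0.22 without that array. The slide block gave -0.99, a value that rests on BALB/c sham replicate C, where the list stood at 0.52, the highest of the BALB/c sham arrays.

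The direction of lipid genes depended on single arrays and on slide. White adipocyte markers had a median difference of 0.31 over 16 genes with all arrays and -0.25 without SPRET/EiJ LDIR replicate A. Fatty acid synthesis went from 0.07 over 20 genes to -0.52, fatty acid oxidation from 0.05 over 17 genes to -0.52, and the respiratory chain from 0.08 over 70 genes to -0.30. Without that array 3 genes of synthesis were past the thresholds as lower, the citrate carrier Slc25a1, the sterol sensor Insig1 and the acyltransferase Agpat2. So were 2 of oxidation, the carnitine carrier Slc25a20 and the dehydrogenase Hadh. Over all 30422 tested probes, 496 were past them as lower in that fit. Without BALB/c sham replicate C the medians of these 3 metabolic lists were -0.20, -0.12 and -0.06, and with the slide block 0.68, 0.23 and 0.35. Adipoq, the adipocyte hormone adiponectin, differed by 0.19 and by -0.31 without the array.

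Brown adipocyte markers had a median change over 14 genes of -0.69 in BALB/c and -0.61 in SPRET/EiJ, the latter -0.06 without SPRET/EiJ LDIR replicate A. In BALB/c 5 of the 14 had all LDIR arrays below all sham arrays, against 5.96% of all genes. Their median difference was -0.19 with all arrays, -0.67 without that array and 0.09 with the slide block. Past the thresholds as lower was 1 gene, and 3 without that array (Ppargc1a, Cidea and Cox7a1). Ppargc1a, a coactivator of mitochondrial genes, had 0.48, 0.08 and 0.15 in BALB/c sham and -0.90, -0.02 and -0.17 after LDIR, and in SPRET/EiJ 0.52, -0.55 and 0.61 after sham and 0.11, 1.28 and 0.98 after LDIR. The BALB/c groups did not overlap and the SPRET/EiJ groups did. The difference was -1.20 (limma, unadjusted p = 0.0423) and -1.54 without SPRET/EiJ LDIR replicate A, but a dimmer probe of the gene gave -0.12. Ppargc1a was past the thresholds in 5 of the 12 fits without 1 array and not with the slide block, at -1.11. Ucp1, the uncoupling protein of brown fat, ranged from -2.56 to 1.64 in BALB/c and from 0.49 to 4.59 in SPRET/EiJ, and its difference of -0.54 lay within that spread.

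Fibroblast matrix genes had a difference above 0 for 21 of 21 genes with all arrays, with a median of 0.65 and 1 gene past the thresholds. Loxl1, an enzyme that crosslinks elastin, had 2.67, 1.77 and 2.48 in BALB/c sham and 3.12, 2.75 and 2.99 after LDIR, and differed by 1.01, with 0.84 from a dimmer probe. Without SPRET/EiJ LDIR replicate A the median was 0.21, 15 of 21 genes were above 0 and none was past the thresholds, Loxl1 being at 0.63. Without BALB/c sham replicate B, where the level of the list was -0.91, none was either, with a median of 0.44. With the slide block the median was 0.37, and Loxl1, at 0.84, was not past the thresholds. Thbs2, a matrix glycoprotein, and the collagen genes Col1a1 and Col3a1 differed by 1.54, 0.49 and 0.39 with all arrays and by 1.09, -0.01 and -0.04 without SPRET/EiJ LDIR replicate A.

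**Figure D4:**
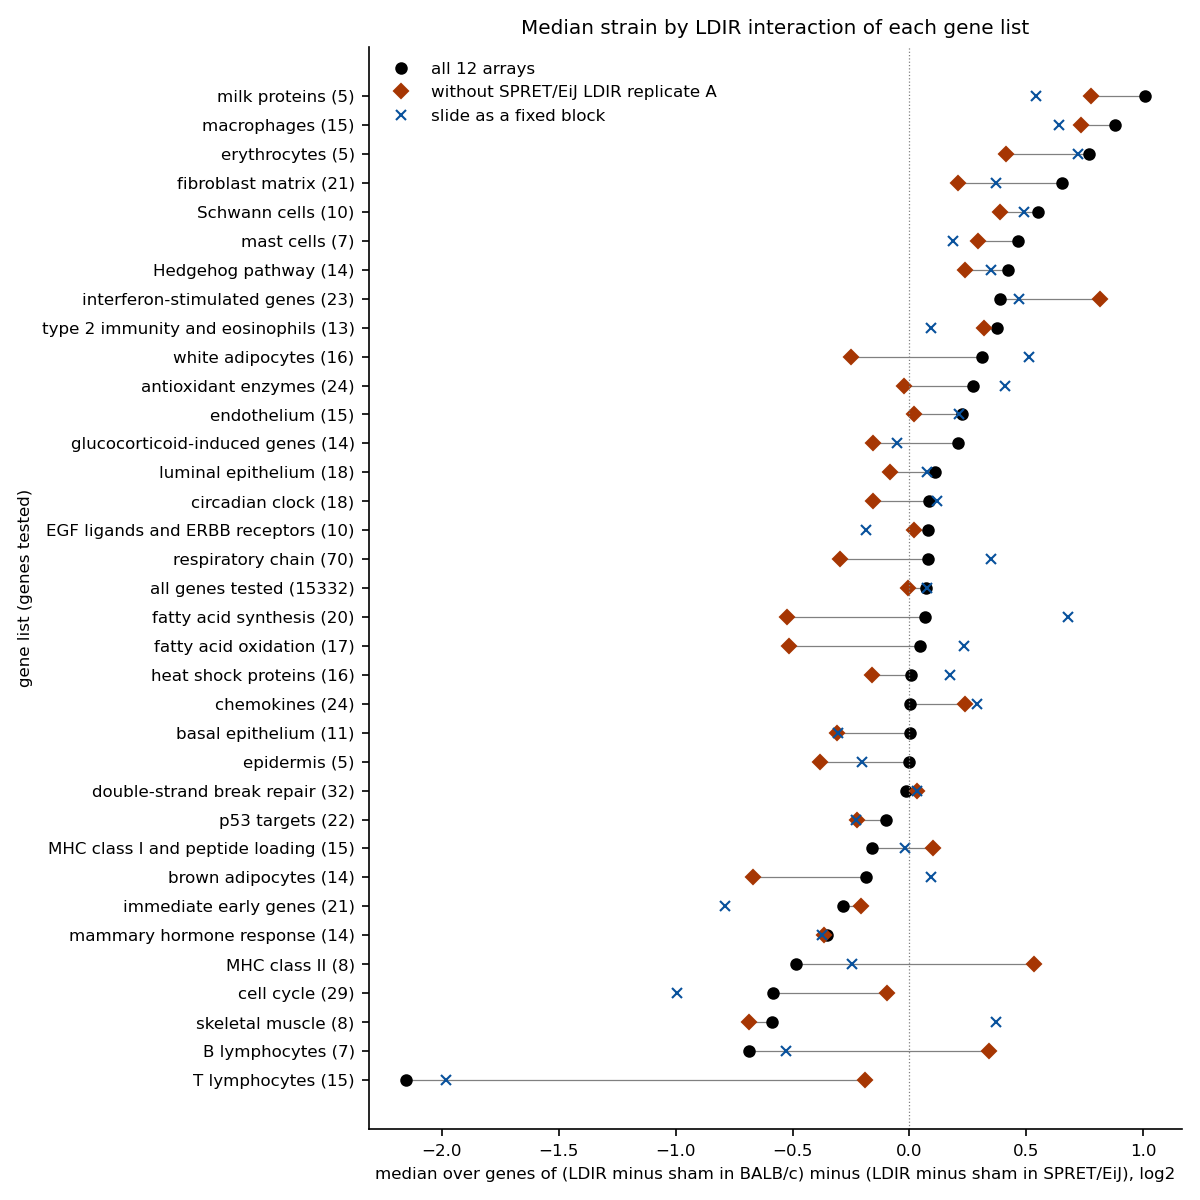
Median difference of changes (log2) of each of the 34 gene lists and of all genes tested, with all 12 arrays (circles), without SPRET/EiJ LDIR replicate A (diamonds) and with slide as a fixed block (crosses). T lymphocytes move from -2.15 to -0.19 without that array and interferon-stimulated genes from 0.39 to 0.81.

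Among genes that respond to DNA damage, 0 of 22 tested p53 targets were past the thresholds, which is near the background of 2.73%, and their median difference was -0.10. Cdkn1a, the cell cycle inhibitor p21, was between -2.17 and -1.60 on all 6 BALB/c arrays. Its SPRET/EiJ levels ran from -0.35 to 2.06, and it differed by 0.53 with an SE of 0.66. Mdm2, which degrades p53, was between 3.01 and 3.32 in BALB/c and between 2.69 and 3.03 in SPRET/EiJ, and its difference was -0.22. Tnfrsf10b, a death receptor, had an unadjusted p of 0.0489 in limma but, at -0.54, a difference under 1.5-fold.

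In double-strand break repair 2 of 32 genes were past the thresholds as lower, and the list median was -0.01. H2ax, the histone variant phosphorylated at breaks, had 1.19, 1.92 and 1.36 in BALB/c sham and 1.01, 0.73 and 0.83 after LDIR. The SPRET/EiJ arrays had 0.82, 0.70 and 0.76 after sham and 1.56, 0.70 and 0.97 after LDIR. LDIR arrays lay below sham arrays in BALB/c, and the SPRET/EiJ groups overlapped. The difference was -0.95 (limma, unadjusted p = 0.018), -0.71 without SPRET/EiJ LDIR replicate A, and, no longer past the thresholds, -0.82 with slide as a block. Rad54l, a motor protein of homologous recombination, differed by -1.35. It was not past the thresholds without SPRET/EiJ LDIR replicate A (-1.03), with the slide block (-1.41) or after normexp (-0.55). Prkdc, the catalytic subunit of the DNA-dependent protein kinase of end joining, differed by -0.15 with an SE of 0.35.

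Epithelial lists held no gene past the thresholds among 18 luminal and 11 basal markers, with medians of 0.11 and 0.00. Krt18, a luminal keratin, was between 6.33 and 7.45 on the BALB/c arrays and differed by 0.42 with an SE of 0.82. Krt14, a basal keratin, had 0.39, 1.40 and 1.26 in BALB/c sham and 0.24, -0.17 and 0.21 after LDIR. Those groups did not overlap, but the difference between strains was -0.58 with an SE of 0.62. SPRET/EiJ sham replicate B had the lowest luminal level among the 6 SPRET/EiJ arrays, at -2.31.

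Of 14 genes of the mammary hormone response, none was past the thresholds, and the median was -0.35. Areg, the growth factor amphiregulin that relays the estrogen signal, had 3.91, 4.30 and 5.14 in BALB/c sham and 4.49, 1.67 and 4.33 after LDIR, and its difference was -1.56 with an SE of 1.16. BALB/c LDIR replicate B was the low array. Pgr, the progesterone receptor, differed by 0.51 and Gata3, a luminal transcription factor, by 0.12, both less than their SE of 0.96 and 0.74. Lalba, a milk whey protein, was past the thresholds as higher at 2.00. However, its level of 2.42 on SPRET/EiJ sham replicate A stood above the other 5 arrays of the strain, which lay between -0.98 and -0.30. Lalba was past the thresholds in 6 of the 12 fits without 1 array. It was not past them without SPRET/EiJ LDIR replicate A (1.88) or with the slide block (1.87).

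Of the remaining cell type lists, Schwann cell genes had 1 of 10 past the thresholds as higher. Ncam1, a neural adhesion molecule, had -2.54, -3.01 and -2.54 in BALB/c sham and -2.02, -1.79 and -2.17 after LDIR, with no overlap, and differed by 0.92, but was not past the thresholds with the slide block (0.77) or after normexp (0.57). The myelin gene Prx differed by 1.40 without passing. Cdsn, an adhesion protein of the epidermis, was past the thresholds as lower at -1.41, 1 of 5 epidermis genes. Skeletal muscle genes, present on BALB/c sham replicate A at 2.06, had 0 of 8 past the thresholds. None was past them among mast cell (7 tested), endothelial (15), erythrocyte (5) and ERBB ligand and receptor genes (10).

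Among the other function lists, 1 of 14 Hedgehog genes was past the thresholds as higher, Kif7, a ciliary kinesin, at 0.60. Kif7 was past them in 8 of the 12 fits without 1 array, and not without SPRET/EiJ LDIR replicate A (0.58), with the slide block (0.55) or after normexp (0.52). Gli2, the activator of that pathway, differed by 0.81 with an SE of 0.50. Of 16 heat shock genes 1 was past them as lower, Chordc1, a partner of Hsp90, at -0.68. Chordc1 was past them in 1 of 12 fits that left out 1 array and was at -0.28 with the slide block. Immediate early genes (21 tested, with a median of -0.28, or -0.79 with the slide block), glucocorticoid-induced genes (14), the circadian clock (18) and antioxidant enzymes (24) had none.

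Among coding probes with a gene symbol, the smallest p after Oasl2 on the higher side belonged to Plekhh2, Car12, Adm and Pls1. Adm, the vasodilator peptide adrenomedullin, had -0.81, -0.92 and 0.19 in BALB/c sham and 0.87, 0.52 and 0.68 after LDIR. For SPRET/EiJ the levels were 0.64, 1.48 and 0.81 after sham and -0.74, 0.54 and 0.48 after LDIR. The groups lay apart in both strains and in opposite directions. The difference was 2.08 with an SE of 0.54 (limma, unadjusted p = 0.00238), and 1.67 without SPRET/EiJ LDIR replicate A. Car12, a carbonic anhydrase, differed by 1.90, Plekhh2, a podocyte protein, by 1.32 and Pls1, an actin bundler, by 1.19. All 3 stayed past the thresholds without each array in turn. With the slide block Adm, Car12, Plekhh2 and Pls1 differed by 1.38, 1.23, 1.32 and 0.70. Adm was at 0.96 with that block and without SPRET/EiJ LDIR replicate A. After normexp background correction the dim genes Plekhh2 and Pls1 differed by 0.32 and 0.37 and did not pass.

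The largest fitted differences came from probes with wide spread. A second probe of Xaf1, an interferon-induced partner of an apoptosis inhibitor, differed by 4.07. In BALB/c it had -3.93, -3.72 and -4.55 after sham and 1.92, -3.04 and 2.06 after LDIR. SPRET/EiJ arrays were between 1.77 and 3.10. The brighter probe of Xaf1 differed by -0.22, so this value belongs to 1 probe and, in BALB/c, to 2 arrays. Without BALB/c LDIR replicate B this probe and 1 of Sprr1a, an epidermal envelope protein, had adjusted p-values (limma) of 0.0083 and 0.037, the 2 values under 0.05 in any setting. Esrrb, an orphan nuclear receptor, differed by 2.69, Ogn, a small matrix proteoglycan, by 2.29 and Kng1, the precursor of bradykinin, by 2.27. Esrrb was past the thresholds in 4 of the 12 fits without 1 array, and none of the 3 was past them with the slide block.

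On the lower side, the smallest p belonged to 8430426J06Rik, Vmn2r111, 1700017B05Rik, Gatad2b and Tmem121. The first had 0.41, -0.27 and -0.04 in BALB/c sham and -1.06, -1.66 and -1.50 after LDIR, while SPRET/EiJ arrays lay between -3.18 and -1.61 with overlap. Its difference was -1.96 with an SE of 0.49 (limma, unadjusted p = 0.00167). Gatad2b, a subunit of the NuRD chromatin complex, differed by -0.84, with BALB/c LDIR arrays below and SPRET/EiJ LDIR arrays above their sham arrays. Tmem121, a membrane protein, differed by -1.26, and its second tested probe by -1.17, but after normexp the first was at -0.44 and not past the thresholds. The vomeronasal receptor gene Vmn2r111 belongs to a large family with close copies, so its signal of -1.19 may not be its own. By size, Snorc, a proteoglycan of cartilage, differed by -3.32, the lipid transporter Mfsd2a by -3.20, the adhesion molecule Dscam by -2.82 and the histone H2bu2 by -2.40. Mfsd2a was past the thresholds in 7 and H2bu2 in 6 of the 12 fits without 1 array. H2bu2 was at -1.58 and not past them without SPRET/EiJ LDIR replicate A, and with the slide block neither it (-2.66) nor Dscam (-2.50) was.

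For lncRNAs, 167 of 5981 tested probes were past the thresholds as higher and 75 as lower, 2.79% and 1.25%, against 1.67% and 1.2% of coding probes, or 4.05% against 2.86% in both directions. The order turned after normexp, with 69 of 5981 lncRNA and 459 of 24441 coding probes past the thresholds. The lncRNA probe with the smallest p on the lower side lies in an mm9 interval of chromosome 9, from 20313342 to 20323517 on the reverse strand, for which the array has 6 probes. Of the 5 tested, 4 were past the thresholds as lower, and the fifth differed by -0.47. The 4 probe sequences are shown because they repeat 1 result at separate places of 1 interval. They are given from the 5' end of the locus.

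probe 1, chr9:20323300-20323359: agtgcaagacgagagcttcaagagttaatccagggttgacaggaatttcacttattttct
probe 2, chr9:20323037-20323096: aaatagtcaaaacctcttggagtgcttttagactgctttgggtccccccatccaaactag
probe 3, chr9:20322951-20323010: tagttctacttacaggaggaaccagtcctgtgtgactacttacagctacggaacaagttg
probe 4, chr9:20322832-20322891: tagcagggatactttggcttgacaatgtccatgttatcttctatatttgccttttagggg

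Probe 3, with the smallest p, had -0.14, -0.49 and -0.42 in BALB/c sham and -0.79, -1.20 and -1.32 after LDIR. On the SPRET/EiJ arrays it had -1.71, -2.20 and -1.99 after sham and -1.08, -1.50 and -1.70 after LDIR. LDIR arrays lay below sham arrays in BALB/c and above them in SPRET/EiJ, though LDIR replicate C and sham replicate A nearly met in the latter. The difference was -1.29 with an SE of 0.31 (limma, unadjusted p = 0.00145). Probes 1, 2 and 4 differed by -1.65, -0.66 and -1.14, and only in probe 1 did BALB/c groups overlap. Without SPRET/EiJ LDIR replicate A the 4 remained past the thresholds, at -1.56, -0.65, -1.12 and -0.98 in the order printed. The slide block gave -1.28, -0.74, -1.23 and -1.13. The probes share an interval and arrays, so they are not independent measurements of the mice. Whether they lie on 1 transcript was not tested.

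**Figure D5:**
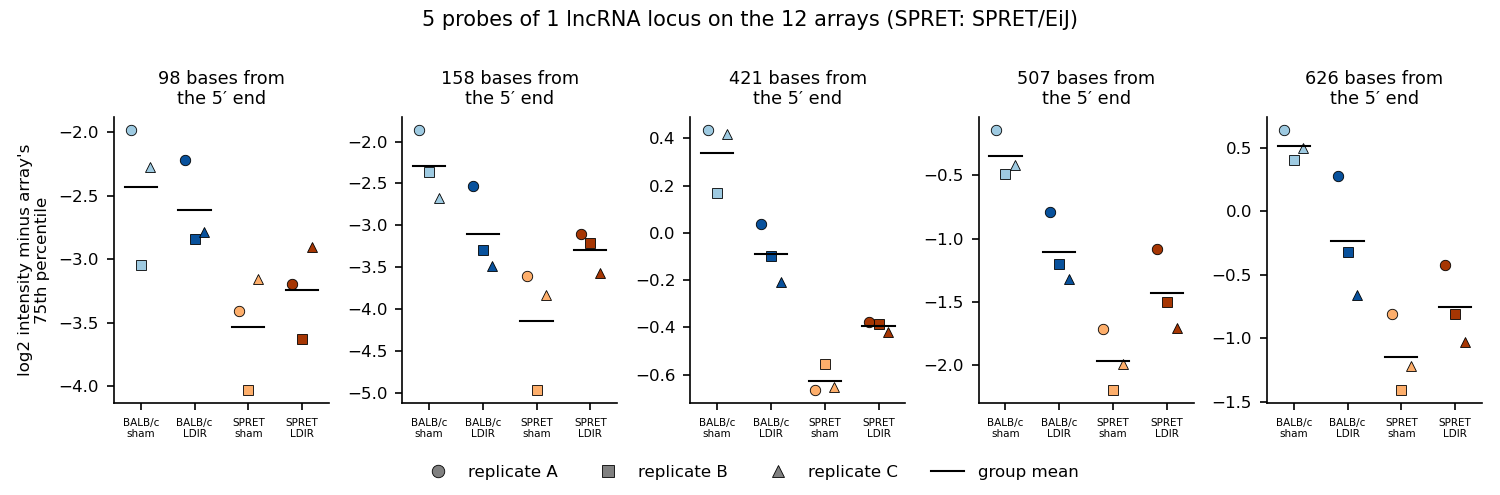
Levels (log2 intensity minus the array's 75th percentile) of the 5 tested probes of the chromosome 9 lncRNA locus on the 12 arrays, ordered by distance from the 5' end of the locus, with points for replicates A, B and C and a line for the group mean. The change after LDIR differs between the strains by -0.47 for the probe nearest the 5' end and by -0.66 to -1.65 for the other 4.

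Of the other lncRNA probes with the smallest p, 3 were higher. They lie in mm9 intervals on chromosome 14 (chr14:28231577-28242027_F), chromosome 17 (chr17:56687541-56694616_F) and chromosome 5 (chr5:120253747-120281800_R), and differed by 1.25, 1.46 and 1.80. In each, LDIR arrays lay above sham arrays in BALB/c and below them in SPRET/EiJ. On the lower side were chr11:97505439-97522274_R at -1.79 and chr17:46972160-46997919_R at -1.22, which were at -1.08 and -0.94 and not past the thresholds with the slide block. The higher 3 are dim, with means of -4.76 to -1.67 over the groups, and after normexp background correction the first 2 were no longer past the thresholds, at 0.38 and 0.59.

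Across the 15332 genes the changes of the strains were weakly correlated. In the t-test of the study's methods, 0 of 30422 probes had an adjusted p under 0.05 in either strain. A low correlation is also what noise would give, so it does not show that the responses differed. Pearson's r of the change in SPRET/EiJ on that in BALB/c was 0.091 with all arrays and 0.039 without SPRET/EiJ LDIR replicate A, a description across genes that share arrays within each strain. In BALB/c 6.7% of all tested probes had LDIR above sham arrays without overlap and 5.12% below, and in SPRET/EiJ 2.8% above and 2.41% below. Among genes with 1 probe each the SPRET/EiJ shares were 2.28% and 2.66%. Of the 574 probes past the thresholds as higher, 355 had BALB/c LDIR arrays above sham arrays without overlap, 119 had SPRET/EiJ LDIR arrays below sham arrays and 39 had both, and since these values chose the probes the counts are a description. Among the 368 lower, with directions turned, the counts were 188, 114 and 25.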

How the data were processed

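RNA of each mammary gland was hybridised to 1 Agilent 1-colour array. The authors deposited scanner intensity values, background-subtracted by Feature Extraction 10.10.1.1 per the file headers (mm9 probe coordinates), and log2 values normalized to the 75th percentile, used here as an alternative. Intensity was put on the log2 scale, minus each array's 75th percentile over spots that are neither controls nor outliers, and spots of a probe were averaged. The deposited flag for signal well above background, required on 12 arrays, set the probes tested; at 58.2% to 73.1% of spots above background per array, dim genes are not covered. Group means of the 12 arrays were fitted with limma 3.58.1 (lmFit, eBayes) in R 4.3.3, with Benjamini-Hochberg adjustment over all 30422 probes; thresholds were those of the study's methods for LDIR against sham. The number of arrays, 3 per group, limits precision. Of 39430 coding probes, 31380 were matched to a gene, by accession or symbol, in the RefSeq table (GRCm38.p6, names only). Genes were named by a rule: the smallest p and largest differences among probes past the thresholds, up to 2 genes of each list, and 14 genes given whatever their values; others are named within a count, or as list members chosen after their values were seen. Results for some genes are not reported here. The members and lists were chosen with earlier results of these data known. The procedure was tested on simulated data. Alternatives were array weights, each array left out, a block for slide (fixed or random) or replicate, a fit of the 24 arrays, an unmoderated model, 2 other filters on dim probes, retained outlier spots, quantile or normexp (offset 50) processing, and the log2 values of the authors. Figures were drawn with matplotlib 3.10.9.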

Additional observations from a re-analysis of the deposited data

Results flagged for a closer look

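For 11 of the named probes the 12 arrays gave opposite directions in the strains without overlap of LDIR and sham in either, and the difference of changes itself passed the unadjusted thresholds (limma, adjusted p = 0.938 for each). On the higher side these were Oasl2 at 1.615, Adm at 2.084, Pls1 at 1.190 and Retnla at 1.965, and the lncRNA probes of chr14:28231577-28242027_F at 1.248, chr17:56687541-56694616_F at 1.458 and chr5:120253747-120281800_R at 1.796. On the lower side they were Vmn2r111 at -1.193, Gatad2b at -0.840 and the lncRNA probes of chr9:20313342-20323517_R at -1.294 and chr17:46972160-46997919_R at -1.223, the last of which did not pass with slide as a block (-0.938). Over all probes past the thresholds, 39 higher and 25 lower ones had this pattern, among them a second probe of the chromosome 9 locus. The named probes had been picked for small p, large difference or membership of a list. After normexp Pls1 (0.368) and the probes of chr14:28231577-28242027_F (0.379) and chr17:56687541-56694616_F (0.585) did not pass. With slide as a block and without SPRET/EiJ LDIR replicate A, Retnla (1.154) did not pass.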

How the results depend on the processing

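The main limits are 3 arrays per group, SPRET/EiJ LDIR replicate A, and slides that hold the BALB/c groups unevenly. The count of 942 probes past the thresholds was 528 after normexp, 1562 with probes above background in 1 whole group, 1971 with no filter, 1700 with array weights, 327 with slide as a fixed block, 304 with slide and all 24 arrays, 550 with slide and without SPRET/EiJ LDIR replicate A (chosen after the data were seen), and 556 to 1867 with each array left out, lowest without BALB/c LDIR replicate C and highest without BALB/c sham replicate C. The share of higher calls was 49.1% after normexp, 30.3% with slide as a fixed block, 37.5% with slide and all 24 arrays, 51.3% with array weights, and 38.4% to 83.1% with each array left out. The count with an adjusted p under 0.05 was 0 in each setting apart from 2 without BALB/c LDIR replicate B, so 0 to 2 with each array left out.

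Replicate letters were checked as pairs. Deviations of arrays with the same letter correlated at -0.02, 0.14 and -0.01 (A, B, C) in BALB/c and 0.11, 0.18 and -0.19 in SPRET/EiJ. LDIR replicate B was closest to the sham array of its own letter in both strains, and A and C were not. These values cannot settle whether the letters mark pairs, and the main fit did not pair them. With the replicate block 1447 probes were past the thresholds.

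Among the genes named by the rule, sign turned only in those that were not past the thresholds. Those past them were chosen on these same arrays, so a turn of sign was unlikely and its absence is no support. With each array left out the difference ranged from -0.054 to 1.24 for Pgr, -0.032 to 1.17 for Krt18, -0.31 to 0.52 for Adipoq, -1.54 to 0.14 for Ucp1, -0.011 to 1.19 for Cdkn1a, -0.25 to 0.81 for Gata3, -0.34 to 0.064 for Stat6 and -0.32 to 0.13 for Prkdc. With slide as a fixed block, on 12 or 24 arrays, it was 0.27 for Ucp1, -0.31 for Gata3, 0.056 for Stat6 and 0.037 for Prkdc. With slide and without SPRET/EiJ LDIR replicate A it was -0.25 for Krt18, -0.38 for Gata3, 0.23 for Stat6 and 0.32 for Prkdc, and with array weights -0.30 for Adipoq and 0.043 for Prkdc. The cause was not tested. Over all settings, the genes and probes named by the rule gave 1174 values that kept direction and side of the thresholds. These include genes that stayed short of the thresholds throughout. Of the rest, 171 were no longer past them, 3 newly passed and 30 turned sign. Other genes that the text mentions are not counted. Of the list medians, 824 stayed within the spread between replicates and 60 moved beyond it. Turns of sign were not counted for lists. The median of the B lymphocyte markers turned sign without SPRET/EiJ LDIR replicate A. It counts as within the spread, which is 1.045 for this list and includes that array.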
